A study of Mus musculus with 4 samples.

Results

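The genes examined here encode the constitutive proteasome, its activators, its inhibitor and its assembly chaperones. Members were probe sets annotated to exactly 1 symbol beginning with Psma to Psmg and a digit, without the immunoproteasome genes Psmb8, Psmb9 and Psmb10. This gave 45 of the 12393 genes on the array, each represented by its probe set of highest mean signal. Of these, 44 were bright enough to be tested, among 7847 tested genes. Only Psma8, a testis-specific core subunit, was too dim, at 0.6 and 2.3 in the EGFP pair, against 3.7 and 4.2 in the p62-EGFP pair. Psmc3ip and Psme3ip1 met the rule by name, but they encode proteins named for binding a subunit, and they are given apart from the subunit classes.

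RNA came from 4 subcutaneous tumors grown in NCR Nu/Nu nude mice after injection of 10000000 iBMK cells, an immortalized line of baby mouse kidney epithelium. All cells carried the ATG5-/- genotype, which blocks autophagosome formation, and Bcl-2, which opposes apoptosis. In 2 tumors the injected cells expressed EGFP, a fluorescent protein, and in 2 they expressed p62-EGFP, in which the autophagy adaptor p62 is fused to EGFP. The promoter of either construct and the age of the mice are not given in the labels. The comparison asks which transcripts differ when p62 is supplied in excess to tumors that cannot clear it by autophagy. Nude mice lack most thymus-derived T cells but keep NK cells, macrophages, vessels and stroma, so each sample mixes tumor and host RNA. Fewer cells of a type and less RNA per cell cannot be told apart in such samples. Nothing in the labels says that same-group tumors had different hosts or cultures, so p-values measure only the spread between these tumors, which may be technical.

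The proteasome degrades proteins tagged with ubiquitin. Its barrel-shaped core is built of outer alpha rings, which gate entry, and inner beta rings, which hold the proteases. A regulatory particle sits on the core: its base contains ATPases that unfold the substrate, and its lid removes the ubiquitin chain. Other activators, inhibitors and chaperones open, block or assemble the core. Proteasome and autophagy are the main routes of protein disposal in the cell, and p62 binds ubiquitin and links cargo to autophagosomes.

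The values are scaled MAS5 signals, and the log2 difference is p62-EGFP minus EGFP on the log2(signal + 16) scale. The median array signal lay between 57.7 and 60.9. Across tested probe sets the p62-EGFP tumors correlated at 0.980 and the EGFP tumors at 0.901; probe sets are not independent replicates. Epithelial markers were measured in all tumors (5 of 5 tested), whereas the 3 kidney lineage markers measured (Pax8, Cdh16 and Lhx1) were too dim to test. The summed epithelial signal was 1445 and 686 in the EGFP pair, against 1429 and 2089 in the p62-EGFP pair. It was thus lowest in EGFP tumor 2, although Krt19 was lowest in EGFP tumor 1. EGFP tumor 2 stood apart in its host cell transcripts. The summed signal of 3 leukocyte markers was 176 in EGFP tumor 1 but 2841 in EGFP tumor 2, against 265 and 318 in the p62-EGFP pair. For 9 macrophage markers it was 1172 and 9047 against 2189 and 2189, and for 7 NK and T cell markers 63.7 and 2714 against 59.6 and 68.7. Mast cell and endothelial markers differed between the groups instead. The summed signal of 4 mast cell markers was 555 and 395.5 in the EGFP pair, against 67.9 and 45.2 in the p62-EGFP pair. All 3 tested ones were lower in both p62-EGFP tumors, where 22% of tested genes were. For 5 endothelial markers the sum was 282 and 368 against 138 and 163, with 4 of the 5 lower in both. For 4 fibroblast markers it was 693 and 2295.5 against 1342 and 1914, lowest in EGFP tumor 1. The part of all these cells in the values below was not tested. Skeletal muscle transcripts were highest in p62-EGFP tumor 1, where 6 of them summed to 2808, against 33.3 and 374 in the EGFP pair and 44.3 in p62-EGFP tumor 2. Sqstm1, which encodes p62, read 976 and 1156 in the EGFP pair, against 1433 and 1688 in the p62-EGFP pair. It lies on chromosome 11, whose other genes were shifted too, and how much of its rise came from the construct was not tested.

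Proteasome transcripts differed between the groups about as much as other transcripts, with a median absolute log2 difference of 0.21 beside 0.22 over all tested genes. The 95% interval lay within a doubling or halving for 38 of the 44 members (86.4%), beside 77.7% of tested genes. No member passed the test (0 of 44; limma, Benjamini-Hochberg adjusted p of at least 0.205), where 0.051% of the tested genes and 0.0884% of the tested probe sets did. At an unadjusted p below 0.05, 8 members were higher and 0 lower in limma, where 8.5% of tested genes were higher and 6.27% lower. The median log2 difference over the 44 members was 0.12, beside 0.014 over all tested genes. On the log2(signal + 16) scale 42 of the 44 lay within 1.5-fold, as did 87.4% of all tested genes. In linear mean signal Psmg1, Psmc3ip and Psme3 were 1.73-fold, 1.70-fold and 1.56-fold higher. Members were brighter than most genes, with a median EGFP signal of 523.5 against 179, and their EGFP replicates differed less (median absolute log2 gap of 0.22 against 0.27). The groups were separate for 24 members, with no overlap of signals: 19 were higher in both p62-EGFP tumors, where 26.4% of tested genes were, and 5 were lower, where 22% were. The gap between the EGFP tumors exceeded the difference between groups for 24 members, or 54.5%, as it did for 57% of tested genes.

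**Figure D1:**
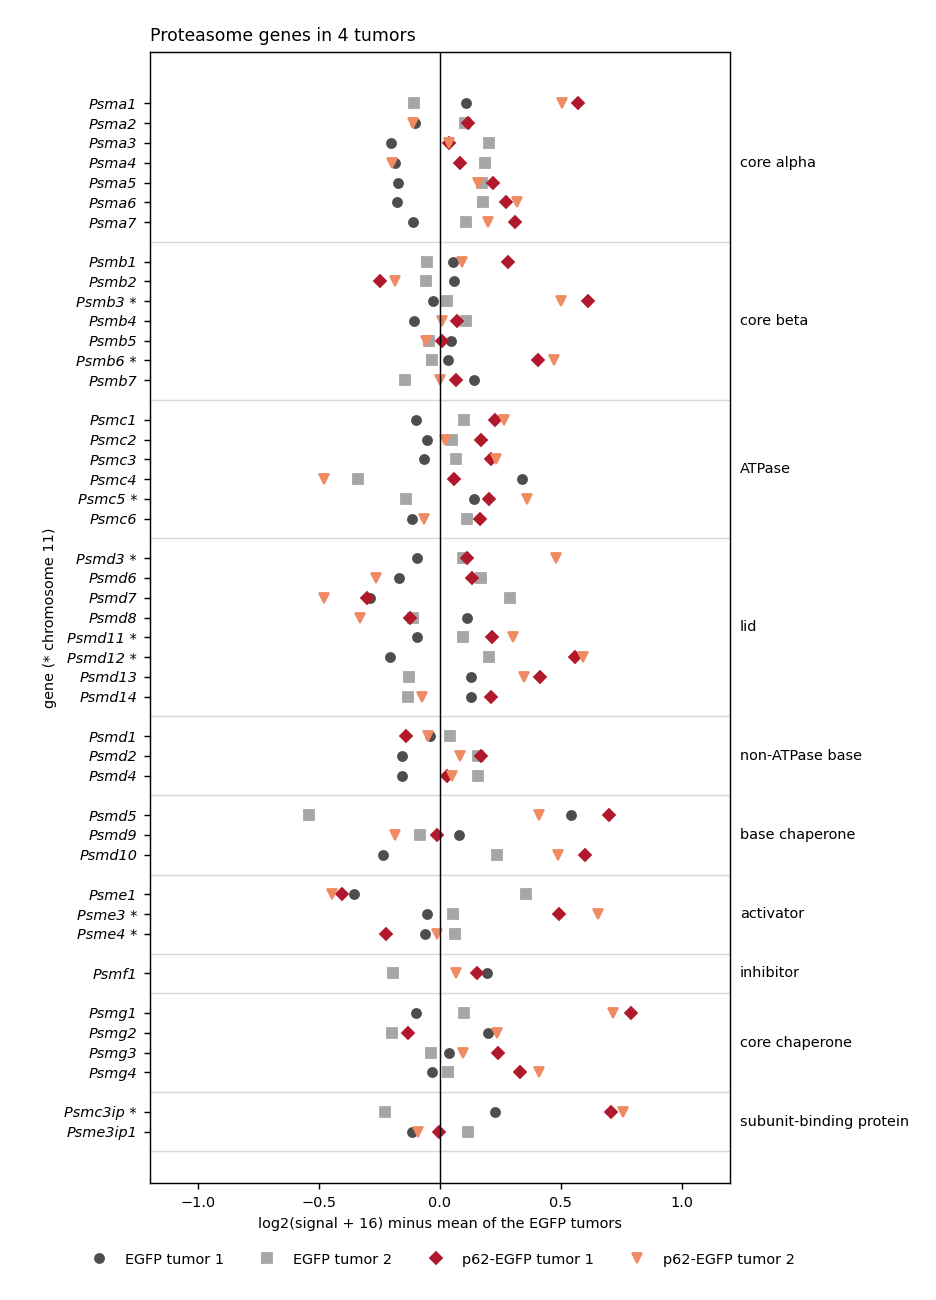
Each row is 1 tested gene, grouped by class, and each point is 1 tumor, placed by its log2(signal + 16) minus the mean of the EGFP tumors; an asterisk marks genes of chromosome 11. Most points lie near the zero line, Psmg1 has the largest separation (log2 difference 0.75), and 19 genes have both p62-EGFP points to the right of both EGFP points.

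Promoter sequences are shown for 5 members whose values recur below. Psmb5 and Psmb6 encode catalytic subunits and hold the core of the antioxidant response element, the site bound by the products of Nfe2l1 and Nfe2l2, close before their start; Psmd12 holds it farther upstream. Psmg1 has the largest difference of all members, and Psme1 is the activator gene known to respond to interferon. Sequences are from RefSeq (GRCm38.p6), written 5′ to 3′ on the strand of the gene, and capitals mark the match. Positions count from the start of the gene in that table.
Psmb6: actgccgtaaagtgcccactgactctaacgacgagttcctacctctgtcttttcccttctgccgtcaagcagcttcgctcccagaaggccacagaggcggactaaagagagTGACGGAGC
Psmb5: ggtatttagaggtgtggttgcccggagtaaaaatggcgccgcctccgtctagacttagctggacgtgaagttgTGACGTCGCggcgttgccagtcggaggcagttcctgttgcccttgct
Psmd12: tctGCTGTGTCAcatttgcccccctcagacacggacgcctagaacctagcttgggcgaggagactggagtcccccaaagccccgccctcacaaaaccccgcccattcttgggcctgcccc
Psmg1: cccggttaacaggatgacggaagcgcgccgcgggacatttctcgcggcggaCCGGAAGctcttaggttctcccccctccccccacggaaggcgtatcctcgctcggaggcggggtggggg
Psme1: gagctgtgcTTTCGCTTTCccttcccgctg
The Psmb6 window is chr11:70525237-70525356 on the plus strand, with the match at -9 to -1, and the Psmb5 window is chr14:54617996-54618115 on the minus strand, with the match at -47 to -39. The Psmd12 window is chr11:107479278-107479397 on the plus strand, with a match to the reverse strand at -247 to -239. For Psmg1 the capitals mark the core of an ETS factor site at -69 to -63 (chr16:95990961-95991080, minus strand). For Psme1 they mark the core of an interferon-stimulated response element on the reverse strand, at 10 to 19 after the start (chr14:55578494-55578523, plus strand).

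The motifs were searched on both strands of the window from 250 bases before to 50 after the start, and matches of different motifs were counted even where they overlapped. RefSeq windows were found for 37 of the 45 members; Psma8, Psmb1, Psmb2, Psmb7, Psmc3, Psmd3, Psmd7 and Psmg2 had none. The antioxidant response element core (TGACNNNGC) was in 6 members, or 16.2% of those with a window, beside 17.1% of the 6447 genes tested on the array with a window and 14% of all genes with one. The 6 were Psmb5, Psmb6, Psmc6, Psmd9, Psmd12 and Psme4, and their median log2 difference was 0.012, beside 0.17 for the 31 members without it. The CCAAT box (CCAAT) was in 37.8% of members and 43.8% of tested genes, with a median log2 difference of 0.25 in the 14 members with it and 0.11 in the 23 without. The core of the ETS factor site (CCGGAAG) was in 43.2% of members and 22.1% of tested genes, with a median log2 difference of 0.21 in the 16 members that hold it and 0.069 in the 21 that do not. The interferon-stimulated response element core (GAAA, any 2 bases, GAAA) was in 5 members (13.5%, beside 3.89% of tested genes), namely Psmb3, Psmd4, Psmd9, Psme1 and Psmg4, whose differences ran from -0.43 to 0.56. The GAS element (TTCNNNGAA) was in 2, Psmd2 and Psmg1 (5.41%, beside 8.07%). These shares are descriptions of the letters in the windows, and no link between a motif and a difference was tested.

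Among the alpha subunits, which form the outer rings of the core, Psma1 differed most. It read 855 and 734 in the EGFP pair, against 1186 and 1130 in the p62-EGFP pair (tumor 1 first, here and below), so the groups did not overlap. The means were 794 ± 85.1 and 1158 ± 39.7 (SD, n = 2 each), a log2 difference of 0.54 (SE 0.13) that did not pass (limma adjusted p = 0.221). Psma6 read 838 and 1074 against 1148 and 1189, and its difference of 0.30 was smaller than its gap of 0.35 between the EGFP tumors (limma adjusted p = 0.421). Psma7 read 533 and 623 against 718 and 664, a log2 difference of 0.26 with no overlap (limma adjusted p = 0.458). Psma5 read 1070 and 1364 against 1409 and 1348, so only EGFP tumor 1 lay apart. Psma2, Psma3 and Psma4 overlapped between groups, with log2 differences between -0.06 and 0.04. The median over the 7 tested alpha genes was 0.19.

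The alpha genes also separated the EGFP tumors from each other. For 6 of the 7, all but Psma1, EGFP tumor 2 read higher than EGFP tumor 1, where 41.6% of all tested genes did. The median gap was 0.35 on the log2 scale, beside -0.079 over all tested genes. Among the beta genes, 2 of 7 were higher in EGFP tumor 2, with a median gap of -0.092. The count was 3 of 3 for non-ATPase base genes (median gap 0.31), 3 of 3 for activators, 4 of 6 for ATPases and 5 of 8 for lid genes. For chaperones of the base it was 1 of 3, for those of the core 2 of 4, and over all members 27 of 44. Among nonmember genes with a known chromosome, the share ran from 18.3% on chromosome 17 to 80.3% on chromosome X. The differences between the classes and the part of the chromosomes were not tested. The alpha median was 0.36 when the p62-EGFP tumors were set against EGFP tumor 1 alone and 0.015 against EGFP tumor 2 alone. The leukocyte markers moved with EGFP tumor 2 as well, and their part in the alpha values was not tested.

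The beta subunits hold the active sites, and those of Psmb5, Psmb6 and Psmb7 are the catalytic ones. Psmb5, which encodes the chymotrypsin-like subunit, was nearly the same in every tumor, at 508 and 476 in the EGFP pair, against 494.5 and 472 in the p62-EGFP pair. Its log2 difference was -0.025, with a 95% interval from -0.37 to 0.32 (limma adjusted p = 0.946). Psmb7, which encodes the trypsin-like subunit, read 1531 and 1254 against 1452 and 1387, and both p62-EGFP tumors lay between the EGFP tumors (log2 difference 0.034, interval -0.29 to 0.36). Psmb6, the caspase-like subunit, stood apart from both. It read 977 and 932 against 1269 and 1330, with means of 954 ± 31.3 and 1299 ± 42.6 (SD, n = 2 each) and a log2 difference of 0.44 (SE 0.11; limma adjusted p = 0.221).

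Of the noncatalytic beta genes, Psmb3 had the largest difference. Its signal was 621 and 648 in the EGFP pair, against 980 and 905 in the p62-EGFP pair, well beyond the spread within either group (log2 difference 0.56, SE 0.12, limma adjusted p = 0.216). A second Psmb3 probe set gave a similar log2 difference of 0.53. Psmb1 read 866 and 803 against 1016 and 889, a smaller separation of 0.18 (limma adjusted p = 0.538). Psmb2 went the other way, at 488 and 449 against 392 and 410 (log2 difference -0.22, limma adjusted p = 0.514). Psmb4 overlapped between groups, and the median over the 7 beta genes was 0.041. Of the 4 beta genes without overlap, Psmb3 and Psmb6 lie on chromosome 11, whose other genes are described below, and Psmb1 and Psmb2 lie elsewhere.

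The ATPase genes encode the ring of the base that unfolds substrates. Their median log2 difference was 0.16, 3 of the 6 were higher in both p62-EGFP tumors, as were 26.4% of tested genes, and none passed (limma adjusted p of at least 0.445). Psmc5 read 462 and 377 against 483 and 540, and the difference of 0.28 was about as large as its gap between the EGFP tumors (-0.28). Psmc1 read 232.5 and 269 against 296 and 304, with a difference of 0.25. Psmc3 read 747 and 821 against 909 and 922, with a difference of 0.22. Psmc4 was the most uneven within groups, at 993 and 615 against 813.5 and 557, and had a difference of -0.21 whose interval ran from -0.94 to 0.52. Psmc2 and Psmc6 overlapped, with differences of 0.095 and 0.049. The other tested Psmc6 probe set gave 0.30, higher without overlap.

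The lid genes went in both directions. Psmd12, a scaffold subunit of the lid, read 368 and 494 in the EGFP pair, against 637 and 651 in the p62-EGFP pair. Both p62-EGFP tumors were above both EGFP tumors, with means of 431 ± 89.2 and 644 ± 9.76 (SD, n = 2 each) and a log2 difference of 0.58 (SE 0.18, limma adjusted p = 0.277). Psmd13 read 299.5 and 248.5 against 369 and 352, a difference of 0.38 without overlap (limma adjusted p = 0.366). The other tested Psmd13 probe set gave 0.12, with overlap. Psmd3 read 292 and 336 against 339.5 and 443, and p62-EGFP tumor 1 lay only just above EGFP tumor 2. Psmd11 read 1108 and 1266 against 1376 and 1464, and its 4 tested probe sets were all higher in the p62-EGFP tumors, with log2 differences from 0.26 to 0.48.

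Psmd7, a partner of the deubiquitinase in the lid, had the largest negative difference among the lid genes. It read 388 and 587 against 385 and 338, a log2 difference of -0.39 (limma adjusted p = 0.472). In its brightest probe set, EGFP tumor 2 alone carried most of it. Against EGFP tumor 1 the difference was -0.10 and against EGFP tumor 2 it was -0.68. A dimmer tested Psmd7 probe set read 72.1 and 69.3 in the EGFP pair, against 60.1 and 51.6 in the p62-EGFP pair. There the EGFP tumors were alike, and the log2 difference was -0.27 without overlap. Psmd8 was lower in both p62-EGFP tumors as well, with a difference of -0.23. Psmd14, the deubiquitinase itself, and Psmd6 overlapped, with differences of 0.069 and -0.065. The other tested Psmd6 probe set gave 0.26, higher without overlap. Over the 8 lid genes, 4 were higher and 2 lower without overlap, beside 26.4% and 22% of tested genes, and the median was 0.16.

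The large non-ATPase subunits of the base differed little. The scaffolds Psmd1 and Psmd2 had log2 differences of -0.094 and 0.13, and the ubiquitin receptor Psmd4 one of 0.041; Psmd1 was just below both EGFP tumors in both p62-EGFP tumors. For Psmd2 the EGFP tumors read 668 and 836 and the p62-EGFP tumors 844 and 793, so EGFP tumor 1 alone was low. The chaperones that assemble the base varied more. Psmd10, also known as gankyrin, read 134.5 and 193 against 252 and 233, a log2 difference of 0.54 with no overlap (SE 0.21, limma adjusted p = 0.342). Psmd5 read 228 and 99.2 against 256 and 207: EGFP tumor 2 was low and the other 3 tumors were alike, so the difference came to 0.014 with EGFP tumor 1 as the only control and to 1.10 with EGFP tumor 2. Psmd9 read 303 and 269.5 against 283 and 249.5, with overlap. The median over all 14 Psmd genes was 0.098.

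The chaperones that assemble the core were all on the positive side. Psmg1, which with Psmg2 builds the alpha ring, had the largest difference of any member. It read 227 and 262 in the EGFP pair, against 433 and 411 in the p62-EGFP pair. The means were 244 ± 25.1 and 422 ± 15.8 (SD, n = 2 each), 1.73-fold on the linear scale and 0.75 on the log2 scale (SE 0.16, limma adjusted p = 0.205). Its partner Psmg2 showed no such separation, at 355 and 265 against 279 and 365 (log2 difference 0.054, interval -0.50 to 0.61). Of the other pair, Psmg4 read 183 and 192 against 241 and 254 (log2 difference 0.37, limma adjusted p = 0.354), and Psmg3 194 and 183 against 226 and 202.5 (0.17, limma adjusted p = 0.644).

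The activators lay on both sides of zero. Psme3, which forms a nuclear activator ring, read 103 and 112 in the EGFP pair, against 158 and 179 in the p62-EGFP pair. The groups did not overlap, with a log2 difference of 0.57 (SE 0.17, limma adjusted p = 0.259); the other tested Psme3 probe set gave 0.31, with overlap. Psme1, a subunit of the interferon-induced activator ring, read 534 and 884 against 515 and 500. The 3 tumors other than EGFP tumor 2 were alike: the log2 difference of -0.43 (limma adjusted p = 0.473) came to -0.071 with EGFP tumor 1 as the only control and to -0.78 with EGFP tumor 2. The probe set annotated to both Psme2b and Psme2, which the rule leaves out, read 371 and 1048 against 329.5 and 316.5, with the same tumor high. Psme4, the large single-chain activator, read 300.5 and 328.5 against 267 and 312, with a difference of -0.12. The inhibitor Psmf1 read 145 and 107 against 140 and 131, with overlap. Leukocyte, macrophage, and NK and T cell markers were highest in EGFP tumor 2 too, and their part in the Psme1 values was not tested.

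Of the genes named for binding a subunit, Psmc3ip, which acts in meiotic recombination, read 210 and 149 against 299 and 310 (log2 difference 0.73, limma adjusted p = 0.249). Psme3ip1 read 305 and 360 against 331 and 310. Without both genes the median over the members remained 0.12.

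Chromosome 11 carried 9 of the members, more than any other chromosome, and the other genes of that chromosome were shifted in these tumors. Over its 688 tested genes that are not members, the median log2 difference was 0.30, and 58.7% were higher and 4.8% lower in both p62-EGFP tumors. The members there had a median of 0.44, and 8 of the 9 were higher in both p62-EGFP tumors: Psmb3, Psmb6, Psmc5, Psmd3, Psmd11, Psmd12, Psme3 and Psmc3ip. The 35 tested members of other chromosomes had a median of 0.054, with 11 higher and 5 lower without overlap, where 23.2% of the genes off chromosome 11 were higher and 23.8% lower. Sqstm1 lies on chromosome 11 as well, with a log2 difference of 0.54 (limma adjusted p = 0.235). Once the chromosome median was subtracted, 0.24 of it was left. Of the 8 members at an unadjusted p below 0.05 in limma, 5 lay on chromosome 11, where 31% of the other tested genes were higher at that level.

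**Figure D2:**
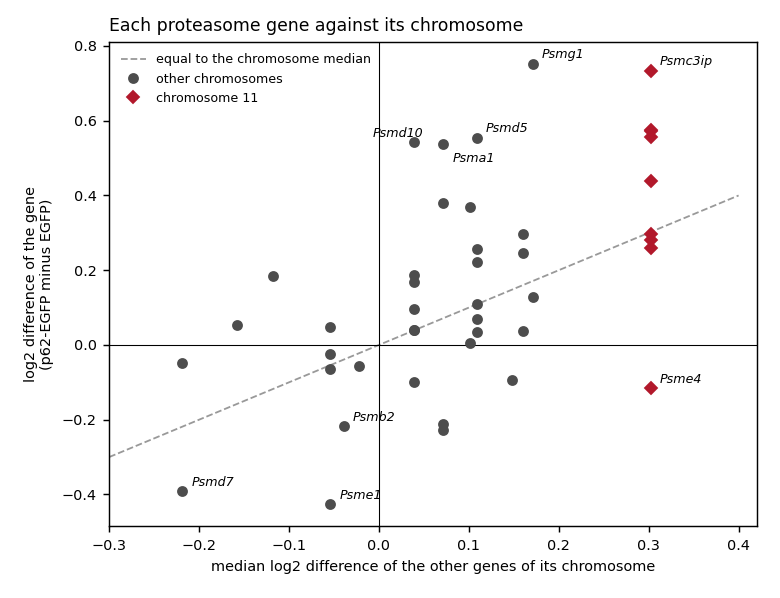
Each point is 1 tested member, placed by the median log2 difference of the other tested genes of its chromosome (x axis) and by its own log2 difference (y axis); the dashed line marks equality. The chromosome 11 members stand at a chromosome median of 0.30, and Psmc5, Psmd3 and Psmd11 lie close to the dashed line, whereas Psmg1, Psma1, Psmd10 and Psmd5 lie well above it.

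The chromosome 11 members were also set against the 39 or 40 nearest tested genes that are not members. Psmb6, Psmd11, Psmd3 and Psmc5 differed from the median of their neighbours by 0.060, -0.011, -0.070 and 0.030. Psmb3, Psme3, Psmd12 and Psmc3ip exceeded it by 0.19, 0.31, 0.31 and 0.40. The other tested Psme3 probe set, at 0.31, lay nearer the neighbour median of 0.26. These excesses were not tested, and the quartiles of the nonmember genes after Psme4 were 0.12 and 0.53. Psme4, the only chromosome 11 member that was not higher by its brightest probe set, is also the first of them along the chromosome, at rank 84 of 697 tested genes. Of its 3 tested probe sets, the dimmer ones gave -0.16, with overlap, and 0.076, higher without overlap. The 83 genes before it had a median log2 difference of 0.039, and 30.1% of them were higher in both p62-EGFP tumors; the 605 nonmember genes after it had a median of 0.33, and 62.6% were higher. That split was chosen after the values were seen.

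**Figure D3:**
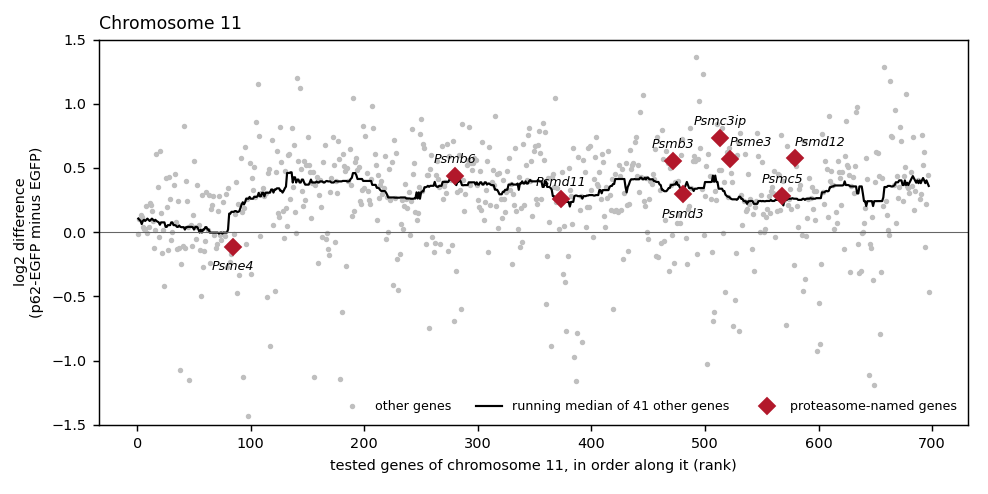
Each point is 1 tested gene of chromosome 11, in its order along the chromosome (x axis, rank) with its log2 difference (y axis); diamonds are the members and the line is a running median over 41 other genes, with 4 genes beyond the axis limits of 1.5. Psme4 lies at the end of the stretch whose median is near zero, and the other 8 members lie in the stretch whose running median stays above zero.

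When the median of the chromosome was subtracted from each gene, the median absolute log2 difference of the members went from 0.21 to 0.14. The members of chromosome 11 then had a median of 0.14 and those of other chromosomes 0.029. With the chromosome median of each array subtracted, 13 members were higher and 7 lower without overlap, beside 25.9% and 25.3% of tested genes. The largest differences left were those of Psmg1 (0.58), Psmd10 (0.50), Psma1 (0.47), Psmd5 (0.45) and Psmc3ip (0.43) on the positive side and Psme4 (-0.42) and Psme1 (-0.37) on the negative side. For Psme4 most of this came from subtracting the chromosome 11 median of 0.30. Its own difference was -0.12, with overlap, and -0.27 relative to the median of its nearest tested genes.

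The immunoproteasome subunits, which replace the catalytic beta subunits in cells exposed to interferon, were lower in both p62-EGFP tumors, where their constitutive partners were not. Psmb8 read 660 and 1342 in the EGFP pair, against 244 and 316 in the p62-EGFP pair, Psmb9 read 439 and 957 against 141 and 156, and Psmb10 read 119 and 651 against 78.7 and 102. The log2 differences were -1.70, -2.02 and -1.51, and none passed with all tumors (limma adjusted p = 0.205, 0.188 and 0.403). Without EGFP tumor 1 the differences were -2.21, -2.56 and -2.66. Without EGFP tumor 2 they ran from -1.47 for Psmb9 to -0.35 for Psmb10. With either p62-EGFP tumor left out they ran from -2.08 to -1.35. Each of these fits leaves 1 tumor alone in its group, so the spread of that group is not measured and no p-value is given. The EGFP tumors themselves differed widely in all 3 genes. Both values of each gene were taken within a tumor, as log2 of the immunoproteasome gene over its partner. The p62-EGFP minus EGFP difference of this ratio was -1.68 for Psmb8 over Psmb5, -2.46 for Psmb9 over Psmb6 and -1.54 for Psmb10 over Psmb7. The groups did not overlap in any of the 3 ratios, and the exact two-sided permutation p was 0.33 for each, the smallest value that 2 tumors against 2 allow; adjustment over the 3 pairs leaves it as it is. For Psmb10 over Psmb7 the separation was narrow, with -3.52 in EGFP tumor 1 and -3.57 in p62-EGFP tumor 2, and it was lost with quantile normalization (exact permutation p = 0.67). Against EGFP tumor 1 alone the differences of the ratios were -1.13, -1.88 and -0.25, and against EGFP tumor 2 alone -2.23, -3.04 and -2.83. The summed signal of the 10 measured interferon response genes was 5198 and 10031 in the EGFP pair, against 3537 and 3948 in the p62-EGFP pair, moving with these genes; its part was not tested.

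**Figure D4:**
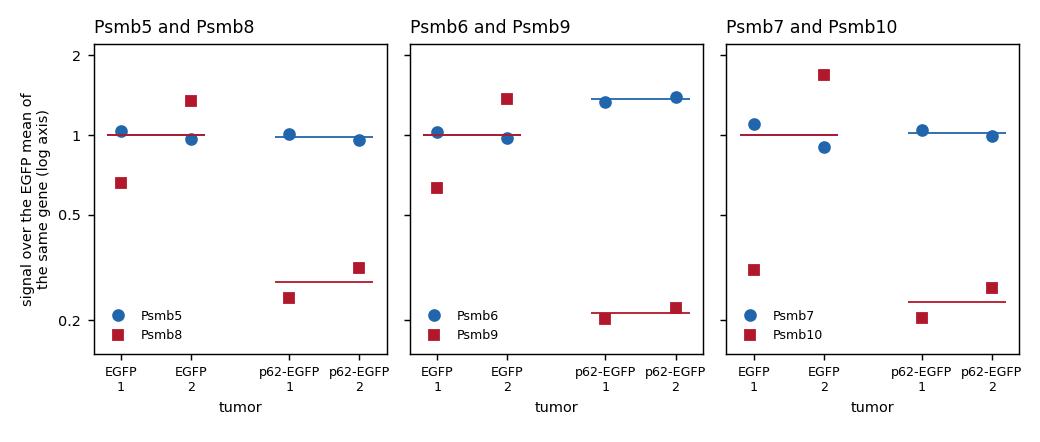
The plots show each tumor's signal divided by the EGFP mean of the same gene (log axis), with constitutive subunits as circles, immunoproteasome subunits as squares and group means as lines (n = 2 each). Psmb5 and Psmb7 stay near 1 in every tumor, Psmb6 is 1.36-fold higher in the p62-EGFP tumors, and Psmb8, Psmb9 and Psmb10 are at 0.28, 0.213 and 0.235 of their EGFP means there.

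Genes that work with the proteasome were read from a list of 30, of which 20 had a probe set with 1 symbol and all 20 of those were tested. None passed (limma adjusted p of at least 0.257), 5 were higher and 7 lower without overlap, beside 26.4% and 22% of tested genes, and their median log2 difference was -0.042. At an unadjusted p below 0.05, limma gave 1 higher and 1 lower, beside 8.5% and 6.27% of tested genes. The lower one was Nfe2l2, which encodes the transcription factor that binds antioxidant response elements. It read 357 and 336 in the EGFP pair, against 230 and 244 in the p62-EGFP pair, a log2 difference of -0.52 (SE 0.15, limma adjusted p = 0.257). Nfe2l1, which encodes the factor that raises proteasome gene transcription when proteasomes are inhibited, read 208 and 200.4 against 169 and 223 (log2 difference -0.067). The higher one was Sem1, the smallest lid subunit, at 1235 and 1167 against 1535 and 1458 (0.31, limma adjusted p = 0.292). Ufd1, a cofactor of the segregase Vcp, read 187 and 218 against 295 and 259 (0.43, limma adjusted p = 0.348). Zfand5, a proteasome-binding zinc finger protein, read 1122 and 1144 against 963 and 960.3 (-0.23, limma adjusted p = 0.382). Pomp, the chaperone that matures the core, read 794 and 1076 against 1294 and 951, with overlap.

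The tumors entering the fit changed which members passed. Without EGFP tumor 1, 8 members passed in limma, where 22.2% of genes did: Psma1, Psmb3, Psmb6, Psmc3ip, Psmd5 and Psmg1 rose and Psmd7 and Psme1 fell. Without EGFP tumor 2, in which host transcripts were high, 6 passed, where 9.87% of genes did, and all 6 rose: Psma6, Psmb3, Psmd10, Psmd12, Psme3 and Psmg1. Psmb3 and Psmg1 were in both sets, with log2 differences of 0.53 and 0.65 in the first fit and 0.59 and 0.85 in the second. Both fits use the same p62-EGFP tumors, so the sets are not independent. In these fits 1 EGFP tumor stands alone and the spread comes from the p62-EGFP tumors. This assumes that the lone tumor varies as they do, so no p-value is given and the sets are descriptions only. Without either p62-EGFP tumor, 0 members and 0% of genes passed. By signals alone, both p62-EGFP tumors were above EGFP tumor 1 for 27 members (38.2% of tested genes) and below it for 10 (42.9%). They were above EGFP tumor 2 for 24 (48.3%) and below it for 12 (35.4%).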

How the data were processed

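The 4 arrays hold 1-colour signal intensities on a linear scale, deposited by the authors as MAS5 values, per the submitters' processing notes; version and settings are not given in the sources used here. Probe sets numbered 22690, 64 of them controls, which were left out; 20380 had 1 symbol in the array annotation, 691 several and 1555 none, and genes were named only from the first kind. The mean signal after trimming 2% at each end was 150.04 on each array, so values were used as deposited. Signals were transformed as log2(signal + 16), a scale that understates changes of dim genes, and probe sets at or above the 40th percentile of mean log2 value (5.605) were tested: 13576 probe sets, of which 12 passed. Groups were compared by two-sided moderated tests in limma 3.58.1 under R 4.3.3, with lmFit followed by eBayes and an intensity trend in the variance. P-values were adjusted by Benjamini-Hochberg over all tested probe sets (threshold 0.05), and the fit was tested on simulated data. With 2 tumors per group the fit has 2 residual degrees of freedom, and the number of arrays limits the precision. Chromosomes and gene order were taken through RefSeq (GRCm38.p6), which matched 20351 probe sets. Symbols were kept as annotated, and 0 of the matched ones differed from RefSeq. No build is given for the array, so only promoter windows carry coordinates. Other steps used Python 3.11.15, pandas 2.3.3, numpy 2.4.6 and scipy 1.17.1. The probe set of Psme2 was no member because its annotation holds a second symbol. The labels do not say whether replicate numbers pair tumors, and deviations of same-numbered tumors correlated at 0.082, so they were not treated as pairs. The genes named in full were, by rule, the 4 of each class with the largest absolute difference, the catalytic pairs, Sqstm1 and the 4 partner genes with the smallest p; other members named, Psmc3ip among them, were chosen after their values were seen. The members, gene lists and alternatives were chosen with earlier results of these data known. Alternatives covered scaling, pseudocount, filter, variance model, a replicate block, averaged probe sets, chromosome medians and leaving out each tumor.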

Additional observations from a re-analysis of the deposited data

How the results depend on the processing

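The number of probe sets that passed was 12, and it was 7 with a filter at the 60th percentile, 6 with no filter and 37 with the replicate number as a block. Leaving out 1 tumor gave 0 to 2835 probe sets and 0 to 8 members. The block brought no member past the threshold; among the comparison genes it did so for Psmb8 (limma adjusted p = 0.0496). Deviations of same-numbered tumors correlated at 0.082, so the numbers were not taken as pairs. With chromosome medians subtracted, the median over the members was 0.043, and it was 0.071 for ATPase, -0.026 for all Psmd and -0.37 for activator genes; with all probe sets of a gene averaged the beta median was 0.185. Without 1 tumor the alpha median ran from 0.015 to 0.36 and the beta median from 0.0097 to 0.18. The count of members lower without overlap was 5 (22% of tested genes), 1 with median centring (18.9%) and 6 to 12 without 1 tumor (30.1% to 42.9%). That of members higher was 19 (26.4%), 19 with median centring (29.7%), 20 with quantile normalization (27.5%) and 20 to 27 without 1 tumor (34.8% to 48.3%). Among the members named by the rule, Psmb5, Psmb7, Psmc4, Psmc5, Psmd2, Psmd3, Psmf1 and Psmg2 changed sign in at least 1 setting, never while past the threshold; the other members were not followed across all settings. The alternatives for counts of members without overlap were chosen after seeing the data. The cause of these changes was not tested. Dim probe sets such as that of Psma8 limit what can be said of their genes.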

Other observations

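Probe sets of a gene did not always move together. Of the 18 members with more than 1 tested probe set, all probe sets had the same sign in 12 and opposite signs in 6: Psma6, Psmc2, Psmd6, Psmd9, Psme4 and Psmf1. The widest range was that of Psma6, from -0.22 for a dim probe set to 0.30 for the brightest. The second probe set of Psmb4 read 326 and 1005 in the EGFP pair, against 444 and 1221 in the p62-EGFP pair, so it was low in both tumors numbered 1 and high in both numbered 2. The brightest probe set of Psmb4 read 1604 and 1866 against 1820 and 1742 and showed no such pattern. For Psmd11 and Psmb3 all tested probe sets were higher in the p62-EGFP tumors.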
